A study of Danio rerio with 6 samples.

Results

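The forkhead transcription factors are the genes whose deposited symbol begins with fox, a class letter and a number. Of 25962 named genes on the array, 49 fitted this rule, in 17 forkhead classes, and 65 of the 75212 transcript clusters carried their symbols. A transcript cluster is the set of probes that the array sums up for a gene or for part of one. The rule reads symbols and no measured value, and for a gene with more than 1 cluster the values are those of its brightest cluster, by the mean of the 6 arrays.

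Forkhead factors share a winged-helix DNA-binding domain, and each class letter groups relatives that often work in the same tissue. FoxA proteins open closed chromatin in the endoderm, prechordal plate and floor plate, and FoxH1 carries Nodal signals to DNA together with Smad proteins. FoxC and FoxF genes belong to paraxial, lateral and splanchnic mesoderm, FoxI, FoxB and FoxD3 to ectoderm and neural crest, and FoxJ1, FoxM1 and FoxO to motile cilia, cell division and insulin signalling. The lateral plate mesoderm, which gives rise to heart, blood, vessels, kidney and fin mesenchyme, borders on endoderm and on somites in the early embryo.

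RNA was measured in sorted cells of homozygous *drl:EGFP* zebrafish at the 2 somite stage, which express EGFP under a regulatory element of *draculin* (*drl*). EGFP-positive cells were compared with EGFP-negative cells of the same line, so both fractions carried the transgene, and cells that took up propidium iodide, a dye that enters dead cells, were left out of both. A single family was mass-mated on 3 occasions, which gave 3 arrays for each fraction from pooled embryos. EGFP-negative cells are all remaining live cells of the embryo and therefore mix many tissues, and a lower share of expressing cells cannot be told apart from less RNA in each cell. Signals are given as log2 values, on which array medians ran from 5.02 to 5.10, and a gene near these medians may not have been detected.

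All 8 lateral plate markers (*drl*, *hand2*, *gata5*, *tal1*, *lmo2*, *etv2*, *osr1* and *tbx20*) were higher in EGFP-positive cells, with a median log2 difference of 3.74. Their summed linear signal ran from 7987 to 11096 in EGFP-positive arrays and from 547 to 897 in EGFP-negative arrays. Because EGFP was driven by a *drl* element, the *drl* value is not independent of the sort. The markers were also chosen with earlier results of these data known. Of the genes that would mark a forkhead pattern of endoderm and lateral plate, *foxa3* was well above the array medians in both fractions, while *foxf1* lay below them on all 6 arrays.

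The direction of the difference varied between forkhead classes. FoxA, FoxC, FoxH and FoxL genes were higher in EGFP-positive cells, and FoxB genes were lower. These classes hold only 1 to 3 genes each, and *foxc1b* and *foxl1* did not stay past the threshold in every alternative fit. The lower genes of the other classes were led by *foxi1* and the neural crest gene *foxd3*. By limma, a linear model with a variance estimate shared across the array, 11 of the 49 genes were higher and 8 were lower at a Benjamini-Hochberg adjusted p under 0.09 over all clusters, which is the false discovery rate of the methods. Genes called in either direction made up 38.8% of the forkhead genes, against 7.61% of all named genes (22.4% against 4.13% for higher, and 16.3% against 3.49% for lower). The median absolute log2 difference was 0.30 over the forkhead genes and 0.12 over all named genes. All 3 EGFP-positive arrays lay above all EGFP-negative arrays for 15 forkhead genes and below them for 10, that is 30.6% and 20.4%, while the same held for 12.9% and 12.6% of all named genes. With 3 arrays against 3, the smallest p that an exact permutation of the arrays allows for 1 gene is 0.1 (two-sided).

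**Figure D1:**
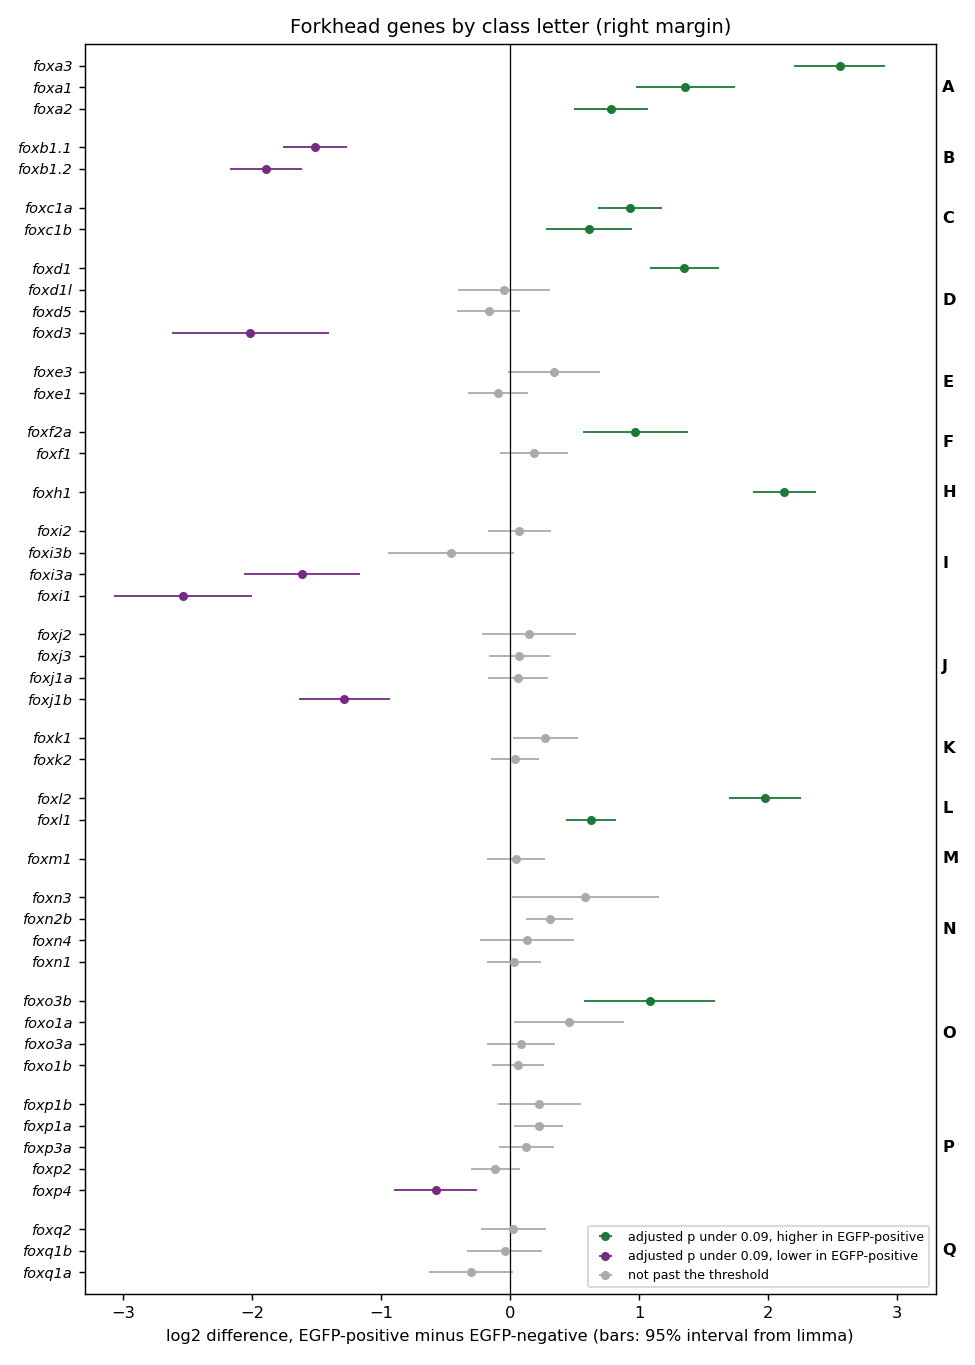
Log2 difference, EGFP-positive minus EGFP-negative, of 45 forkhead genes, grouped by class letter in the right margin, with points coloured by the limma call and bars for the 95% interval. Every gene of classes A, C, H and L lies above 0 and past the threshold, both genes of class B lie below 0 and past it, and classes E, K, M, N and Q hold no gene past it.

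The FoxA genes were all higher in EGFP-positive cells, by 1.72-fold to 5.87-fold. These are pioneer factors of endoderm, prechordal plate and floor plate, and *foxa3* marks early endoderm and the hatching gland. For *foxa3* (Zv9, chromosome 18, positions 44759027 to 44762722, reverse strand) the log2 signal was 9.84, 9.99 and 9.94 in EGFP-positive arrays, against 7.24, 7.17 and 7.70 in EGFP-negative arrays. The fractions were far apart, and the EGFP-negative arrays varied more. At 2.55 ± 0.15 (standard error, adjusted p = 0.000364 from limma), its log2 difference was the largest among the forkhead genes.

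*foxa1* had signals of 7.24, 6.97 and 6.83 in EGFP-positive arrays, against 5.92, 5.39 and 5.67 in EGFP-negative arrays, a 2.56-fold difference (adjusted p = 0.0058 from limma). *foxa2*, which is needed for the floor plate in zebrafish, had signals of 9.48, 9.63 and 9.76 in EGFP-positive arrays, against 8.70, 8.79 and 9.03 in EGFP-negative arrays. Its log2 difference of 0.78 was the smallest of the class (standard error 0.12, adjusted p = 0.017 from limma). Thus *foxa2* was high in both fractions with no overlap, and its 95% interval of 0.50 to 1.07 lay below that of *foxa3*, at 2.20 to 2.91.

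Some markers of endoderm and prechordal plate were higher along with the FoxA genes. Of 9 other endoderm genes, 4 were higher and 2 were lower, with *gata5*, *sox32* and *sox17*, regulators of endoderm formation, at log2 differences of 3.76, 3.44 and 3.26. For comparison with this and the later lists, 4.13% of all named genes were higher and 3.49% were lower. *gata5* was also counted among the lateral plate markers, so its value is not particular to endoderm. The lower genes were *vgll4l*, at -2.83, and the homeobox gene *hnf1ba*, at -0.43, and the median over the 9 genes was 0.04, against -0.0048 over all named genes. The summed linear signal of *sox17* and *sox32* was 2933 to 3831 in EGFP-positive arrays and 264 to 487 in EGFP-negative arrays. Among 6 genes that mark prechordal plate and hatching gland, 5 were higher, and the sum of the 6 was 8355 to 9434 in EGFP-positive arrays and 2918 to 3555 in EGFP-negative arrays. Most of this sum came from *ctslb*, listed as *ctsl1b*, with log2 signals of 12.74, 12.60 and 12.74 in EGFP-positive arrays, against 10.88, 10.87 and 11.22. The hatching gland genes *he1.1* and *he1.2*, listed as *he1a* and *he1b*, lay below the array medians in all EGFP-negative arrays and in EGFP-positive replicate 2. In EGFP-positive arrays they gave 5.36, 5.09 and 5.34, and 5.83, 4.36 and 5.24, so their differences are approximate. Of 5 notochord markers, 3 were lower, with a sum of 2006 to 2408 in EGFP-positive arrays and 4090 to 4411 in EGFP-negative arrays, and the floor plate ligand gene *shhb* was lower as well, at -1.60. The part of endoderm, prechordal plate or axial cells in the FoxA values was not tested.

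*foxh1*, whose product binds Smads to switch on Nodal targets and which is mutated in *schmalspur* embryos, was 4.36-fold higher in EGFP-positive cells. On the reverse strand of chromosome 12 from 14830593 to 14835309, it gave 9.05, 9.21 and 9.12 in EGFP-positive arrays, against 6.88, 6.96 and 7.16 in EGFP-negative arrays. The arrays of each fraction lay close together, and the log2 difference was 2.12 ± 0.10 (standard error, adjusted p = 0.000225 from limma).

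Of 14 Nodal pathway genes that act with Foxh1 or respond to it, 3 were higher and 1 was lower, with a median log2 difference of 0.12. The prechordal plate gene *gsc* was higher at 1.79, the effector *smad3b* at 0.76 and the receptor gene *acvr1ba*, listed as *acvr1b*, at 0.59. Of these, *gsc* was also counted among the prechordal plate and hatching gland markers. The Nodal antagonist *lft2* was lower at -0.82. The Nodal ligands *ndr1* and *ndr2*, with log2 differences of 0.20 and 0.09, and *smad2*, with 0.10, did not pass the test. The endodermal Nodal target *mixl1*, listed as *bon*, lay below the median of the array on all 6 arrays.

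Both FoxL genes were higher in EGFP-positive cells. *foxl2*, now *foxl2a*, which maintains the ovary in mammals, gave 6.46, 6.38 and 6.07 in EGFP-positive arrays, against 4.37, 4.30 and 4.31 in EGFP-negative arrays. The EGFP-negative arrays thus lay below their medians, where expression and probe background were not told apart, so the 3.93-fold ratio is approximate (log2 difference 1.98, standard error 0.12, adjusted p = 0.000364 from limma).

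*foxl1*, a gene of the gut mesenchyme in mice, gave 6.12, 6.16 and 6.01 in EGFP-positive arrays, against 5.44, 5.51 and 5.45 in EGFP-negative arrays. This 1.54-fold difference was small but larger than the spread within each fraction (adjusted p = 0.0090 from limma). A further cluster of *foxl1*, listed on the opposite strand and with more probes, differed by -0.04, and with the mean of both clusters the call was lost (adjusted p = 0.15 from limma).

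The FoxC and FoxF genes, which act in somites, vessels and the mesenchyme around the gut, were higher or did not pass. *foxc1a*, needed for somite formation in zebrafish, gave 10.81, 10.97 and 10.93 in EGFP-positive arrays, against 10.15, 9.92 and 9.86 in EGFP-negative arrays. It was 1.90-fold higher without overlap (adjusted p = 0.0050 from limma). *foxc1b* gave 7.46, 7.64 and 7.18 in EGFP-positive arrays, against 6.99, 6.72 and 6.73 in EGFP-negative arrays, a 1.53-fold difference that passed narrowly (adjusted p = 0.077 from limma). Its call was lost without EGFP-positive replicate 1 or 2 or without EGFP-negative replicate 2 or 3, with adjusted p-values between 0.209 and 0.218 in limma. A cluster on the opposite strand, below the array medians throughout, differed by 0.04 on the log2 scale.

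*foxf2a*, a gene of mesenchyme and of the cells that wrap brain vessels, gave 6.92, 7.09 and 7.32 in EGFP-positive arrays, against 5.83, 6.42 and 6.17 in EGFP-negative arrays. The 1.96-fold difference passed (log2 difference 0.97 ± 0.17, standard error, adjusted p = 0.030 from limma), and it lost its call narrowly without EGFP-positive replicate 2 (adjusted p = 0.102 from limma) or EGFP-negative replicate 3 (adjusted p = 0.098 from limma). A cluster with more probes on the opposite strand differed by 0.11 on the log2 scale and did not pass.

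*foxf1*, which in mice marks lateral plate and splanchnic mesoderm, gave 5.03, 4.99 and 4.95 in EGFP-positive arrays, against 4.73, 5.02 and 4.67 in EGFP-negative arrays. The fractions overlapped, and the log2 difference of 0.19 had a 95% interval of -0.08 to 0.45 (adjusted p = 0.52 from limma). With all 6 arrays below their medians, this gene was not measured well enough to place it.

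Of 14 genes of Hedgehog signalling, which switches on FoxF and FoxL genes in the gut mesenchyme of mice, and of FoxF partner genes, 3 were higher and 3 were lower. The higher genes were the mesodermal regulators *tbx20*, *hand2* and *gata4*, at log2 differences of 4.09, 3.69 and 1.91. Of these, *tbx20* and *hand2* are also among the lateral plate markers. No ligand, receptor or effector gene of Hedgehog signalling was called higher. The lower genes were the ligand genes *shhb* and *shha*, at -1.60 and -1.05, and the effector *gli3*, at -0.86. The Hedgehog receptor gene *ptch1*, which also responds to the signal, differed by 0.12 and did not pass. Of 6 other markers of paraxial mesoderm, in which *foxc1a* is expressed, 2 were higher and 1 was lower, with *meox1* at 2.01 and *myod1* at -2.09. Their summed linear signal was 5519 to 5947 in EGFP-positive arrays and 4712 to 5837 in EGFP-negative arrays, and their part in the FoxC values was not tested.

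Among the FoxD genes the values ran in opposite directions. The gene listed as *foxd1* on chromosome 8 is named *foxd2* in the later assembly, and mouse Foxd2 is expressed in paraxial and intermediate mesoderm. It gave 8.53, 8.66 and 8.54 in EGFP-positive arrays, against 7.40, 7.03 and 7.25 in EGFP-negative arrays, a 2.55-fold difference (adjusted p = 0.0014 from limma). In contrast *foxd3*, an early regulator of neural crest and also a gene of the somites, gave 6.29, 6.46 and 6.39 in EGFP-positive arrays, against 8.97, 7.85 and 8.38 in EGFP-negative arrays. It was 4.05-fold lower in EGFP-positive cells, where the arrays lay within a narrow range, while the EGFP-negative arrays spread over more than 1 log2 unit (log2 difference -2.02, standard error 0.26, adjusted p = 0.0078 from limma).

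*foxd5*, expressed in early neural ectoderm and the tail bud, was high in both fractions, with signals of 9.73, 9.87 and 9.95 in EGFP-positive arrays and 9.98, 9.91 and 10.16 in EGFP-negative arrays. Its fractions overlapped, with a log2 difference of -0.17 and a 95% interval of -0.42 to 0.08. The gene listed as *foxd1l*, now *foxd1*, differed by -0.05. Of 5 other neural crest markers, 3 were lower, with *tfap2a* at -2.76, and *snai1b* was higher at 1.78. The summed linear signal of the 5 markers was 3071 to 3458 in EGFP-positive arrays and 5519 to 5947 in EGFP-negative arrays. Most of the EGFP-positive sum came from *snai1b*, with log2 signals of 11.15, 11.14 and 11.20 there. The part of neural crest cells in the *foxd3* value was not tested.

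FoxI genes, which act in the otic placode and in the ion-transporting cells of the skin, held the most negative difference of the family. *foxi1*, needed for the ear and jaw in zebrafish and listed on chromosome 16 from 2302276 to 2304041, gave 7.92, 8.64 and 8.77 in EGFP-positive arrays, against 10.78, 11.11 and 11.05 in EGFP-negative arrays. It was 5.80-fold lower in EGFP-positive cells (log2 difference -2.54, standard error 0.23, adjusted p = 0.0017 from limma). The EGFP-positive signal still lay far above the array medians. The later assembly places *foxi1* on a different chromosome, so which gene this cluster measures is uncertain. *foxi3a*, a regulator of ionocytes, gave 5.08, 5.58 and 5.83 in EGFP-positive arrays, against 7.20, 6.97 and 7.14 in EGFP-negative arrays, and was 3.06-fold lower (adjusted p = 0.0056 from limma). Its EGFP-positive signal came close to the array medians, so this ratio is approximate.

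*foxi3b*, which also directs ionocyte fate, gave 5.09, 5.06 and 5.05 in EGFP-positive arrays, against 6.03, 5.30 and 5.24 in EGFP-negative arrays. The fractions did not overlap, but the difference of -0.46 did not pass (adjusted p = 0.38 from limma) and came mostly from EGFP-negative replicate 1. *foxi2* lay below the medians on all 6 arrays. Of 13 other genes of the ionocyte and preplacodal programme, 8 were lower and 2 were higher, with a median of -1.99. *tfap2c* and *tfap2a*, regulators of non-neural ectoderm, were lowest at -3.11 and -2.76, while *pax8* and *six1b*, which are also genes of kidney and of somites, were higher at 1.67 and 0.74. Of 5 epidermis markers, 4 were lower. The summed linear signal of the 5 was 1437 to 2124 in EGFP-positive arrays and 6507 to 8549 in EGFP-negative arrays. The lists overlap, since the lower epidermis markers *krt4*, *tp63* and *tfap2c* are also among the 13 genes. *tfap2a* is also among the neural crest markers. The part of these cells in the FoxI values was not tested.

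The neural FoxB genes were lower. *foxb1.2*, now *foxb1a*, gave 8.14, 8.42 and 8.28 in EGFP-positive arrays, against 10.36, 10.08 and 10.08 in EGFP-negative arrays, and was 3.71-fold lower (adjusted p = 0.000461 from limma). Its paralog *foxb1.1*, now *foxb1b*, gave 7.90, 7.99 and 8.07 in EGFP-positive arrays, against 9.65, 9.36 and 9.48 in EGFP-negative arrays, and was 2.85-fold lower (adjusted p = 0.000673 from limma). Both are expressed in the hindbrain and spinal cord, both had little spread, and neither was near the array medians in EGFP-positive cells. A further cluster of *foxb1.2* on the same chromosome gave a similar log2 difference of -1.99.

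Of 9 other markers of the neural plate, 7 were lower and the median difference was -1.78 on the log2 scale. Their summed linear signal was 2440 to 3512 in EGFP-positive arrays and 8068 to 9066 in EGFP-negative arrays. The part of neural cells in the FoxB values was not tested.

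**Figure D2:**
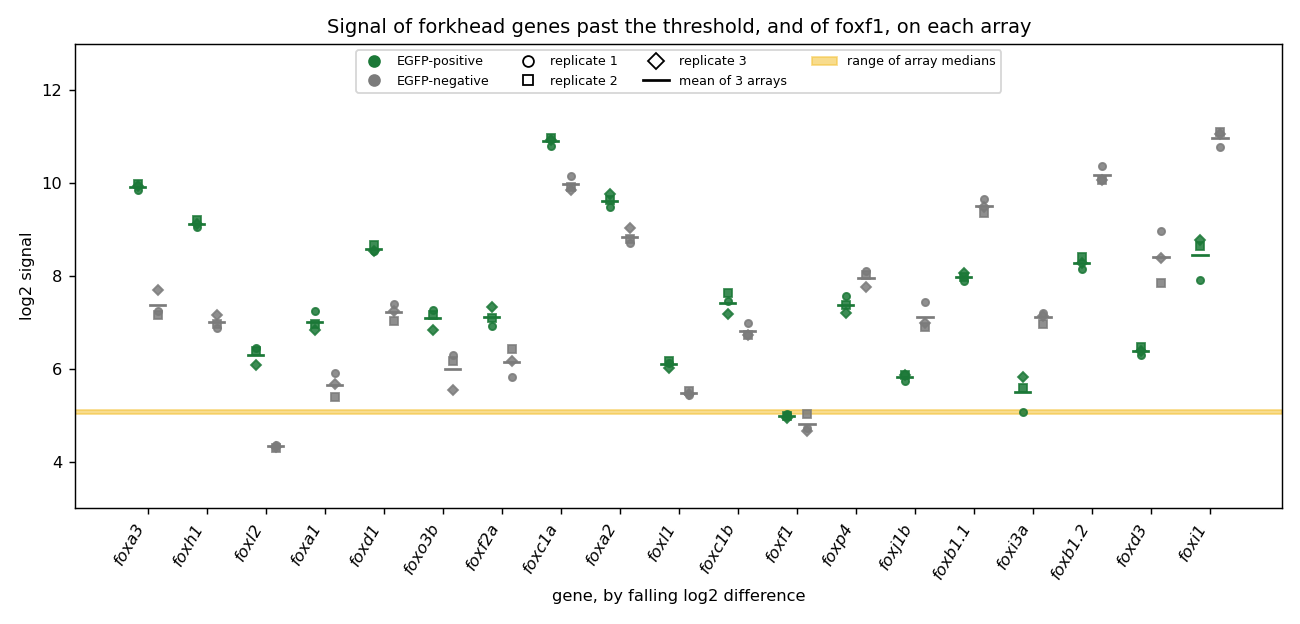
Log2 signal on each of the 6 arrays (EGFP-positive in green on the left of each pair, EGFP-negative in grey on the right, a symbol for each replicate, a line at the mean of 3 arrays) for 18 forkhead genes past the threshold and *foxf1*, ordered by falling log2 difference. The band shows the array medians from 5.02 to 5.10. *foxf1* and the EGFP-negative arrays of *foxl2* lie at or below the band, while *foxc1a*, *foxa2*, *foxb1.2* and *foxi1* lie far above it in both fractions.

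Of the FoxJ genes, *foxj1b*, a ciliary regulator of the ear, was lower and the others did not pass. *foxj1b* gave 5.74, 5.87 and 5.87 in EGFP-positive arrays, against 7.45, 6.91 and 6.99 in EGFP-negative arrays, and was 2.44-fold lower (adjusted p = 0.0054 from limma). That cluster lies on unplaced sequence, and the cluster on chromosome 12 gave a log2 difference of -1.76. The EGFP-positive signals of the chromosome 12 cluster, at 4.75, 4.78 and 5.01, lay below their array medians, so the size of that difference is approximate. *foxj1a*, the master regulator of motile cilia in Kupffer's vesicle and floor plate, gave 6.42, 6.48 and 6.27 in EGFP-positive arrays and 6.38, 6.40 and 6.21 in EGFP-negative arrays, which overlapped. None of 14 genes of motile cilia passed in limma, and none had an unadjusted p under 0.05 (log2 differences from -0.23 to 0.10, with 5 of the genes below the array medians throughout).

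Of the FoxO genes, which are kept out of the nucleus when insulin and Akt signalling is active, *foxo3b* was higher. It gave 7.27, 7.15 and 6.84 in EGFP-positive arrays, against 6.30, 6.17 and 5.54 in EGFP-negative arrays, a 2.12-fold difference (log2 difference 1.08 ± 0.22, standard error, adjusted p = 0.046 from limma). In each fraction replicate 3 was the lowest. The call was lost without EGFP-positive replicate 1 or 2 or without EGFP-negative replicate 2, with adjusted p-values between 0.098 and 0.155 in limma.

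*foxo3a* gave 8.57, 8.56 and 8.46 in EGFP-positive arrays and 8.65, 8.30 and 8.38 in EGFP-negative arrays, with overlap. The gene listed as *foxo1a* on chromosome 16 gave 6.02, 6.10 and 6.27 in EGFP-positive arrays, against 5.86, 5.90 and 5.26 in EGFP-negative arrays. It did not pass (log2 difference 0.46, adjusted p = 0.31 from limma), and the later assembly places *foxo1a* on a different chromosome, so its identity is uncertain. Of 17 other genes around insulin, Akt and FoxO, only *sgk1*, which encodes a kinase that phosphorylates FoxO proteins, passed in limma, at a log2 difference of 0.74. An unadjusted p under 0.05 was found for 4 of the 17, a share near the 18.6% of all named genes. The list also holds *pdk1*, which encodes a pyruvate dehydrogenase kinase outside this pathway and did not pass.

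Of the FoxP genes, *foxp4*, a gene of foregut and lung in mice, was lower by a small amount, with signals of 7.58, 7.37 and 7.20 in EGFP-positive arrays, against 8.10, 8.02 and 7.76 in EGFP-negative arrays. The fractions did not overlap but came close. The 1.49-fold difference passed narrowly (adjusted p = 0.083 from limma). The call held without EGFP-negative replicate 3 and was lost without each of the other 5 arrays in turn, with adjusted p-values between 0.092 and 0.228 in limma. A cluster on the opposite strand differed by -0.20 on the log2 scale and did not pass. *foxp1a* and *foxp1b*, which act in heart and neurons of mammals, differed by 0.22 and 0.23, *foxp2* by -0.12 and *foxp3a* by 0.12, and none of these passed.

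No gene of classes E, K, M, N and Q passed in limma. An unadjusted p under 0.05 was found for 3 of their 12 genes, *foxk1*, *foxn2b* and *foxn3*, against 18.6% of all named genes. *foxn3* had a log2 difference of 0.58, but its fractions overlapped and it lay above the array median on only 1 of 6 arrays. *foxm1*, which drives genes of the G2 and M phases, gave 8.72, 8.96 and 8.82 in EGFP-positive arrays and 8.86, 8.74 and 8.76 in EGFP-negative arrays, and its log2 difference of 0.05 had a 95% interval of -0.18 to 0.27. Of 13 other G2 and M genes, such as *plk1* and *aurka* at 0.20 and 0.15, none passed in limma. An unadjusted p under 0.05 was found for 2 of them, a share below the 18.6% of all named genes. These were *cdc25b*, listed as *cdc25*, at -0.39 and *nek2* at 0.36. The median of the 13 genes was 0.15, against -0.0048 over all named genes. This comparison was not matched for signal level. The 13 genes ranked from percentile 63.5 (*nek2*) to 96.9 (*plk1*) of all named genes by mean signal. With quantile normalization again the log2 difference of *foxm1*, also a bright gene, went from 0.05 to -0.05. The part of normalization in the median of the 13 genes was not tested.

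*foxn2b* was closest to the threshold, with signals of 8.43, 8.36 and 8.42 in EGFP-positive arrays, against 8.13, 8.10 and 8.05 in EGFP-negative arrays (log2 difference 0.31, adjusted p = 0.104 from limma). It passed when p-values were adjusted over 1 cluster for each named gene (adjusted p = 0.067 from limma). With quantile normalization again its log2 difference fell to 0.20 (adjusted p = 0.30 from limma). The adjusted p was 0.22 in limma with a replicate block, and 0.155 to 0.276 when single arrays were left out. *foxk1*, a regulator of metabolism, differed by 0.27 and *foxk2* by 0.04. *foxe3*, a lens gene, and *foxe1*, a thyroid gene, differed by 0.34 and -0.09, and the FoxQ genes by -0.30 to 0.02.

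Paralogs did not always change alike. In zebrafish many genes exist as an a and a b copy left from a duplication of the whole genome, and copies often divide the sites of expression between them. The log2 signal of copy b was subtracted from that of copy a on each array, and the difference between fractions was tested by limma over all 1278 pairs of named genes whose symbols end in a and b. Of 8 forkhead pairs, 4 had unequal changes, while 26.4% of all pairs were called. The 8 include *foxo1a* and *foxo1b*, which did not pass and may not be a true pair, since the identity of the gene listed as *foxo1a* is uncertain.

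The pair *foxj1a* and *foxj1b* differed most, with an a minus b difference of 1.35 between fractions (standard error 0.16, adjusted p = 7.7e-05 from limma). For *foxi3a* and *foxi3b* it was -1.15 (adjusted p = 0.0030 from limma) and for *foxo3a* and *foxo3b* -0.998 (adjusted p = 0.0018 from limma). *foxc1a* and *foxc1b* were both higher, and the difference between their changes, at 0.32 with a 95% interval of -0.0001 to 0.63, did not pass (adjusted p = 0.16 from limma). For *foxi3b* the EGFP-positive arrays lay near or below their medians, so its change, and with it the size of the difference in that pair, was not measured well. For *foxp1a* and *foxp1b* the difference was -0.01, with an interval of -0.30 to 0.29.

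**Figure D3:**
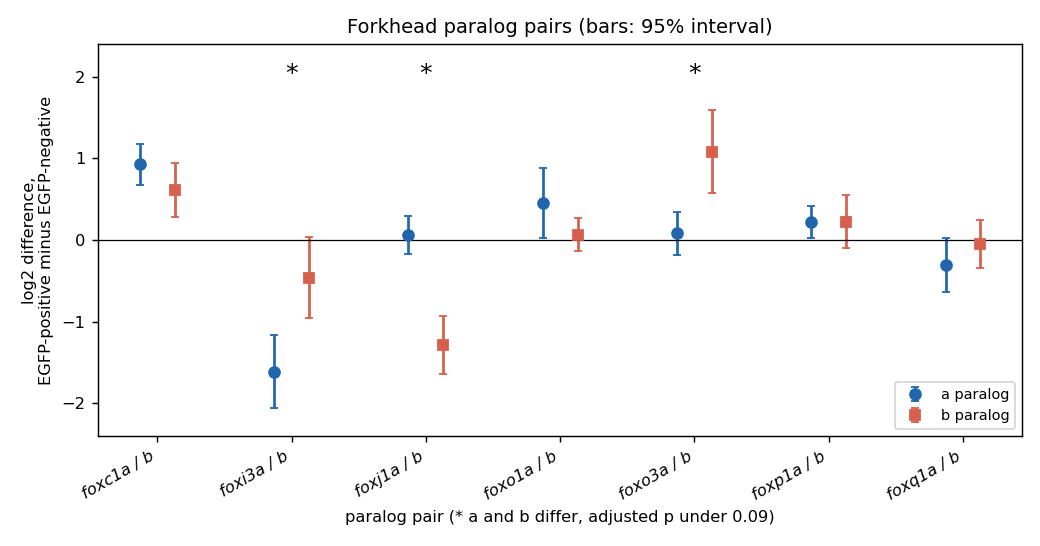
Log2 difference, EGFP-positive minus EGFP-negative, of the a and b copies of 7 forkhead pairs, with 95% intervals from limma, and an asterisk where the changes of a and b differ at an adjusted p under 0.09. The copies of *foxj1*, *foxi3* and *foxo3* lie apart, most for *foxj1* at 1.35, and those of *foxp1* lie together.

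Some forkhead genes lie close to each other in the genome. On chromosome 2 of Zv9 *foxc1a*, *foxf2a* and *foxq1a* follow each other within gaps of 24.7 kb and 4.8 kb, and *foxc1a* and *foxf2a* were higher, while *foxq1a* had a log2 difference of -0.30 and did not pass (adjusted p = 0.38 from limma). On chromosome 20 *foxc1b* lies 16.98 kb from *foxq1b*, which differed by -0.04. On chromosome 8 the gene listed as *foxd1* lies 4.1 kb from *foxe3*, at log2 differences of 1.35 and 0.34. These differences between neighbours were not tested themselves.

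Low signal limits what can be said of part of the family. Of the 49 genes, 37 lay above the array median on all 6 arrays (75.5%, against 62.6% of all named genes), and 17 of these passed in limma. A further 6 lay above it on some arrays, of which 1 was higher (*foxl2*) and 1 was lower. In limma none of the 6 genes below it on all arrays (among them *foxf1*, *foxi2*, *foxn1* and *foxp3a*) passed or had an unadjusted p under 0.05. Over all named genes 7.61% were called and 18.6% had such a p, and 6 genes are too few to set apart from these shares. The shares called at each signal level were not computed for all named genes.

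Within the fractions, replicate 1 often held the extreme value of the lower genes. EGFP-positive replicate 1 was the lowest EGFP-positive array for 7 of the 8 lower forkhead genes, all but *foxp4*, against 45.5% of all 905 lower genes. EGFP-negative replicate 1 was the highest EGFP-negative array for 7 of the 8, all but *foxi1*, against 63.4% of the lower genes. Among the 11 higher genes EGFP-positive replicate 2 was highest for 6, against 37.7% of all 1071 higher genes. EGFP-positive replicate 1 was the lowest EGFP-positive array for 6 of the 11, against 27.5% of the 1071. Leaving out any of the arrays left 8 to 11 genes higher and 6 to 8 lower, and 14 of the 19 calls held in each of these fits.

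Of 6 genes of the Groucho/Tle family, corepressors that bind several forkhead proteins, 2 were lower, against 3.49% of all named genes. These were *tle3b*, listed as *gro1*, at a log2 difference of -0.49, and *tle2a*, listed as *tle2*, at -0.36. In the other direction *tle2c*, listed as *zgc:136336*, differed by 0.41 without overlap but did not pass (adjusted p = 0.117 from limma). The difference of *tle3a*, listed as *gro2*, was 0.01. The lists of the ionocyte and preplacodal, neural plate and neural crest genes had medians of -1.99, -1.78 and -2.18. Those of cilia, G2 and M, Nodal, Hedgehog with FoxF partner, and insulin genes had medians from -0.06 to 0.15. A median near 0 can hide a wide range, which was -2.83 to 3.76 for the endoderm list. For the list of Hedgehog and FoxF partner genes it was -1.60 to 4.09, with the FoxF partner *tbx20* at the upper end. In limma 10 of the 14 Hedgehog and FoxF partner genes had an unadjusted p under 0.05, against 18.6% of all named genes. The 10 include *tbx20*, *hand2*, *gata4*, *bmp4* and *nkx3.3*, which are not Hedgehog ligands, receptors or effectors. Among the Nodal list genes, 5 of 14 had such a p.

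**Figure D4:**
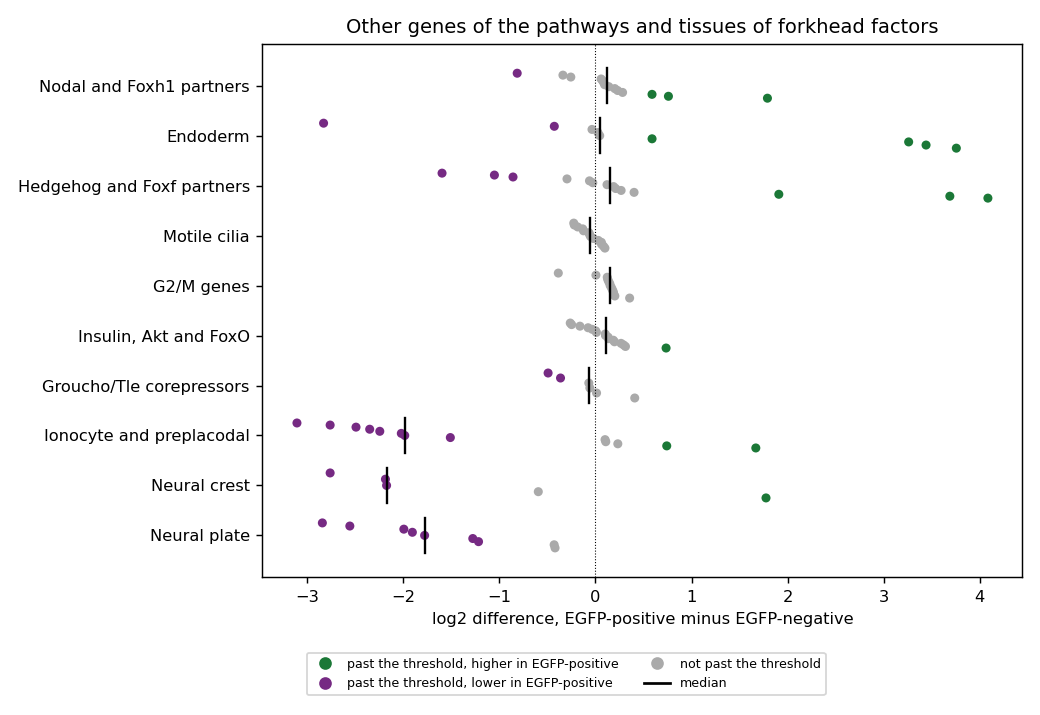
Log2 difference, EGFP-positive minus EGFP-negative, of the genes in 10 lists of pathways and tissues in which forkhead factors act, without forkhead genes, with a point for each gene coloured by its limma call and a line at the median of the list. Points of the ionocyte and preplacodal, neural crest and neural plate lists lie mostly below 0, with medians from -2.18 to -1.78, and those of the motile cilia and G2/M lists lie between -0.39 and 0.36.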

How the data were processed

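Each fraction was hybridised to 3 Affymetrix ZebGene arrays (1 colour). The authors deposited log2 signals for each transcript cluster, made with MAS background correction and RMA normalization in ExpressionConsole for chips designed on Zv9. Their table of the comparison also holds log2 differences, statistics and p-values, which were not used, while its symbols, positions and probe numbers were. EGFP-positive was compared with EGFP-negative over all 75212 clusters by limma 3.58.1 in R 4.3.3 (lmFit and eBayes, two-sided, adjusted p under 0.09), in place of the siggenes statistic that the methods name, which rests on permuted labels of few arrays. Figures were drawn with Python 3.11.15 and matplotlib 3.10.9. Current symbols came from the RefSeq table of GRCz12tu, by which 6 of the 49 genes have another name now, and all positions are those of Zv9. Of the 49 genes, 14 have several clusters. A few genes enter the counts but are not reported singly here.

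The members and the lists were chosen with earlier results of these data known. Values were given for each array for forkhead genes past the threshold, *foxa3*, *foxf1* and most others of their classes, and the rest were summarised by class. For several lists, genes with the largest or smallest differences were named, while for others, such as motile cilia and neural plate, no gene was named. Further genes, such as the ligands and receptors, were named after their values were seen. Precision is limited by the number of arrays, which have no sequencing depth. The labels do not say that equal replicate numbers mark the same collection. Correlations of deviations from the fraction means between arrays with equal numbers were -0.03, 0.04 and 0.09, so the arrays were analysed unpaired. Scripts were first tested on simulated data. Alternatives tried were an intensity trend, a replicate block, a threshold of 0.05, median centring, quantile normalization again, a filter that kept clusters above the array median on at least 3 arrays, adjustment over 1 cluster for each named gene, the mean of all clusters, the cluster with the most probes, leaving out each array and, added after the data were seen, counting identical clusters once.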

Additional observations from a re-analysis of the deposited data

How the results depend on the processing

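Under the 16 alternatives 8 to 12 forkhead genes were higher and 6 to 8 were lower. The paralog pairs were refitted under 12 of these, which gave 3 to 5 pairs with unequal changes. They were not refitted with centring on the median, with 1 cluster for each named gene, with the cluster of the most probes or with identical clusters counted once. With a replicate block 10 genes were higher and 7 lower, with *foxc1b* lost (adjusted p = 0.11 from limma), but the replicate numbers were not shown to pair the arrays, since not every array correlated best with its own number. With the filter on low values *foxn2b* passed, as it did with identical clusters counted once and with 1 cluster for each named gene. *foxc1b* was also lost at an adjusted p under 0.05, with quantile normalization and with the mean of all clusters, and *foxf2a* with the cluster of the most probes. *foxp4* was also lost at an adjusted p under 0.05, with an intensity trend and with centring on the median. Directions turned only for genes with small differences and for *foxl1*. Quantile normalization again gave log2 differences of -0.031 for *foxj3*, -0.053 for *foxk2*, -0.046 for *foxm1* and -0.016 for *foxo3a*. The cluster with the most probes gave 0.16 for *foxd5*, -0.055 for *foxe3* and -0.035 for *foxl1*, from probes listed on the opposite strand. Leaving out single arrays gave -0.032 to 0.096 for *foxq2*, -0.14 to 0.027 for *foxq1b*, -0.014 to 0.074 for *foxn1*, -0.22 to 0.035 for *foxd1l*, -0.026 to 0.24 for *foxj2* and -0.018 to 0.11 for *foxm1*, none of which passed in any of these fits. The cause of these changes was not tested. Signals near the array medians limit what can be said of *foxf1* and *foxl2*.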

Other observations

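Forkhead symbols in other spellings were also on the array and were looked up after the data were seen. A cluster listed as *foxa*, without a number, on chromosome 14 of Zv9 from 35059794 to 35064765 gave 9.21, 9.27 and 9.39 in EGFP-positive arrays, against 8.62, 8.39 and 8.56 in EGFP-negative arrays. It was 1.70-fold higher in EGFP-positive cells without overlap (adjusted p = 0.0083 from limma), the same direction as the 3 FoxA genes. The cluster listed as FOXO1 on chromosome 15 gave 6.40, 6.41 and 6.26 in EGFP-positive arrays, against 5.90, 6.12 and 5.96 in EGFP-negative arrays, and did not pass (log2 difference 0.36, adjusted p = 0.115 from limma). The cluster listed as FOXP3B lay near 4 on the log2 scale in both fractions, with a difference of 0.06.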
